A study of Arabidopsis thaliana and Brassica rapa with 28 samples.

Results

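The chloroplast chromosome of Arabidopsis thaliana carries the genes for core subunits of the photosystems, the cytochrome b6f complex, ATP synthase, the NAD(P)H dehydrogenase-like (NDH) complex and the large subunit of Rubisco, together with rRNAs, tRNAs and part of the translation and transcription machinery. The rows of the gene tables that lie on this chromosome, named Pt in the files, were taken by their position alone, whatever their gene name. They numbered 88 of the 33543 rows of the tables. Of these, 68 bore a chloroplast locus name (ATCG) and 20 bore a name that the authors' transcript assembly gave (XLOC). By the gene name, 41 rows were protein genes, 37 were tRNAs, 8 were rRNAs and 2 had no name.

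RNA was measured in whole seedlings, 5 d old, grown in white light (W) and then kept for 4 h in simulated shade, which has little red relative to far-red light, or in W. CER6pro>>axr3-1::mCit seedlings express axr3-1, a stabilised form of the auxin-response repressor AXR3 (IAA17), fused to the fluorescent protein mCitrine, from the CER6 promoter, which is active in the epidermis (here CER6pro>>axr3-1). Control seedlings were hemizygous UAS::axr3-1::mCit plants, so both genotypes carried the axr3-1 transgene. The 4 groups were CER6pro>>axr3-1 in shade, CER6pro>>axr3-1 in W, control in shade and control in W, each with 4 libraries, 16 in all; Brassica libraries of the same series were not used here. Libraries were stranded, single-end reads of 50 bp, made from polyadenylated RNA. Since whole seedlings were sampled, fewer green cells and less chloroplast RNA per cell cannot be told apart.

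Chloroplast genes stand in operons that are read as long precursor RNAs and then cut and spliced. A bacterial-type polymerase, whose core is encoded on the chloroplast chromosome and guided by nuclear-encoded sigma factors, reads most photosynthesis genes; a phage-type polymerase encoded in the nucleus also reads the chromosome, mainly housekeeping genes. Messenger RNAs of the nucleus end in a long poly(A) tail that protects them. In chloroplasts, A-rich tails are added to RNA that is to be degraded, and mature RNAs lack a long tail. Levels in libraries of polyadenylated RNA are therefore levels of what was captured in such libraries, and they are not the abundance of all chloroplast RNA.

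Sequences are shown for 4 kinds of row that the results turn on, taken from the RefSeq copy of the TAIR10.1 chloroplast sequence; the labels give the authors' build as TAIR10, and 42 of the 51 ATCG rows with a locus of their own had exactly the bounds of a gene in that annotation. The first set holds psbK (Pt:7017-7202, plus strand) and psbI (Pt:7583-7693, plus strand), both coding sequences of small photosystem II subunits that lie in the locus of the row passing the test in the most comparisons. Capitals mark the start and stop codons.
psbK: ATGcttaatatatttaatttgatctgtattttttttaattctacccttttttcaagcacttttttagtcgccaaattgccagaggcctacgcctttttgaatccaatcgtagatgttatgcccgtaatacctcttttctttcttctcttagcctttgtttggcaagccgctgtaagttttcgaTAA
psbI: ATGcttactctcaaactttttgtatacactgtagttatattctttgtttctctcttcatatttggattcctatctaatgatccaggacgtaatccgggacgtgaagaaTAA

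Another set holds the start of the coding sequence of accD (Pt:57075-57194, plus strand, the first 120 of its 1467 bases), the 1-gene row that passed a test, and the whole of petN (Pt:28089-28178, plus strand), the gene in the row named YCF6, which had the largest fold among protein genes. Capitals mark the start codon of accD, and the start and stop codons of petN. The coding sequence of petN is only 90 bases long, little more than the 50 bases of a read.
accD: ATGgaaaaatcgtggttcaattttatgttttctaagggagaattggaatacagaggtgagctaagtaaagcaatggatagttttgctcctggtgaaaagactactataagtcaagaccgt
petN: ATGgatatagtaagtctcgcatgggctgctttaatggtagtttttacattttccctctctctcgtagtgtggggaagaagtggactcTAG

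Next come tRNA genes picked from the rows that had the highest FPKM, or for which a test of the shade response called a difference: trnH (Pt:4-76, minus strand), trnP (Pt:66490-66563, minus strand) and trnC (Pt:27373-27443, plus strand). Genes of the XLOC rows named TRNG.1 and TRNT.2, which that test also called, are not shown. Each sequence shown is in its own 5′ to 3′ direction, and capitals mark its first 50 bases, the length of 1 read.
trnH: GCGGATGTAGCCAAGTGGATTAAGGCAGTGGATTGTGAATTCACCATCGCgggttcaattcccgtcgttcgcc
trnP: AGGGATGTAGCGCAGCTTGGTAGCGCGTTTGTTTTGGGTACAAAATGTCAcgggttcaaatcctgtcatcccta
trnC: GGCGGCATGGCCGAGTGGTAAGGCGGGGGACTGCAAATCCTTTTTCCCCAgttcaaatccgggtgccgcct

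The last set is a pair of gene copies in the inverted repeat, trnN at Pt:109013-109084 (minus strand) and at Pt:129565-129636 (plus strand), which are identical over all 72 bases. Both copies had a row listed at 0 in every group. Capitals again mark the first 50 bases.
trnN copy 1: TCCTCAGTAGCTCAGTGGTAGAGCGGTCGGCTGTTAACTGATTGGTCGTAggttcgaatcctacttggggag
trnN copy 2: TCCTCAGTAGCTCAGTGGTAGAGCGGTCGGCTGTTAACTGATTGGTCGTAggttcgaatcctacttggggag

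Of the 88 rows, 50 were above 0 in some group, 43 were above 0 in all 4 groups and 38 were listed at 0 in all of them. The rows at 0 were 13 protein genes, 21 tRNAs and 4 rRNAs. They differed in position: the chromosome holds 2 copies, in opposite directions, of a sequence of 26264 bases (84171 to 110434 and 128215 to 154478 of 154478 bases), and 30 of the 34 rows inside this inverted repeat were listed at 0. The other 4 rows there, for the 16S and 23S rRNAs, did not exceed 0.0907 FPKM, fragments per length of transcript scaled to the fragments mapped. In the single-copy regions 41 of 48 rows were above 0 in some group, and all of the protein-named rows there were. The remaining 6 rows crossed a border of the repeat. Both rows of ycf2, an essential gene, and those of ndhB, which encodes a membrane subunit of the NDH complex, lay in the repeat and were listed at 0, as were those of rps7 and of the part of rps12 that lies there, which encode ribosomal proteins. A row for the second copy of rpl2, which encodes a ribosomal protein, was also listed at 0, whereas the row named RPL2.1, which extends out of the repeat, had 23.6 to 29.9 FPKM. Whether the mapping of reads that fit both copies set these values was not tested.

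A row was often more than 1 gene. The row named PSBK covered psbK, psbI and a trnS. The row named PSBC covered psbD, psbC, psbZ and a trnS, and the row named PSAA covered psaA, psaB, rps14 and trnfM. The row named PETA covered petA, psaI, ycf4 and cemA, the row named PSBE covered psbE, psbF, psbL and psbJ, and the row named PSBG, an older name for ndhK, covered ndhC, ndhJ and ndhK. The longest loci were those that the rows ATPF and RPOC1 share (16791 bases with 8 genes, among them atpA, atpI and rpoB) and that PETD and RPL2.1 share (13990 bases with 17 genes, among them psbB, petB and rpoA). CLPP1, RPS18, TRNP and TRNW shared a locus of 6452 bases with 10 genes, psaJ and 1 part of rps12 among them. Values of these rows cannot be assigned to single genes. The tables give no strand, so whether an XLOC row that repeats the position of a gene is its sense or its antisense RNA cannot be told. psbA, the gene of the D1 protein of photosystem II, is not analysed here.

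In each group the level was 1 FPKM that the authors' program computed from the 4 libraries together, so no spread between libraries can be given for a level. Folds below are ratios of these FPKM values without a pseudocount, on the log2 scale, with a standard error derived from the p-value in the authors' deposited table (the size of the log2 fold divided by the normal deviate of that p). A row is called changed where the authors' q, their p adjusted for multiple tests, was under 0.05. Nothing in the labels ties the libraries to separately grown cultures, so p-values reflect the spread among libraries alone, which may be technical.

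Control seedlings in W stood apart from the other groups. They had the lowest FPKM of the 4 groups in 36 of the 43 chloroplast rows with a value in every group. For the protein-named rows the count was 27 of 28. Of all 19816 rows tested in all of the comparisons, control seedlings in W were lowest in 28.6%, and of those with a mean of 1 to 100 FPKM in 29.2%. For the other organelle, the mitochondrion, it was 7 of 12 rows. These counts are descriptions and not tests. Chloroplast rows are not independent of each other, and several share a locus, such as ATPF with RPOC1 and PETD with RPL2.1. The same holds for the counts of rows above 0 given below. The exception among the protein-named chloroplast rows was YCF1.2, a gene of a large protein of the chloroplast envelope. The locus of that row crosses a border of the inverted repeat, and a row named YCF1.1, which also does, was listed at 0 in every group. Whether this position affected the values of YCF1.2 was not tested. YCF1.2 had 9.12 FPKM in shade and 7.98 in W in CER6pro>>axr3-1, and 15.3 in shade and 11.5 in W in control. Both CER6pro>>axr3-1 groups thus lay below both control groups, while most protein-named rows had the CER6pro>>axr3-1 groups on top: CER6pro>>axr3-1 was highest in shade in 16 rows and in W in 9, against 3 for control in shade.

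**Figure D1:**
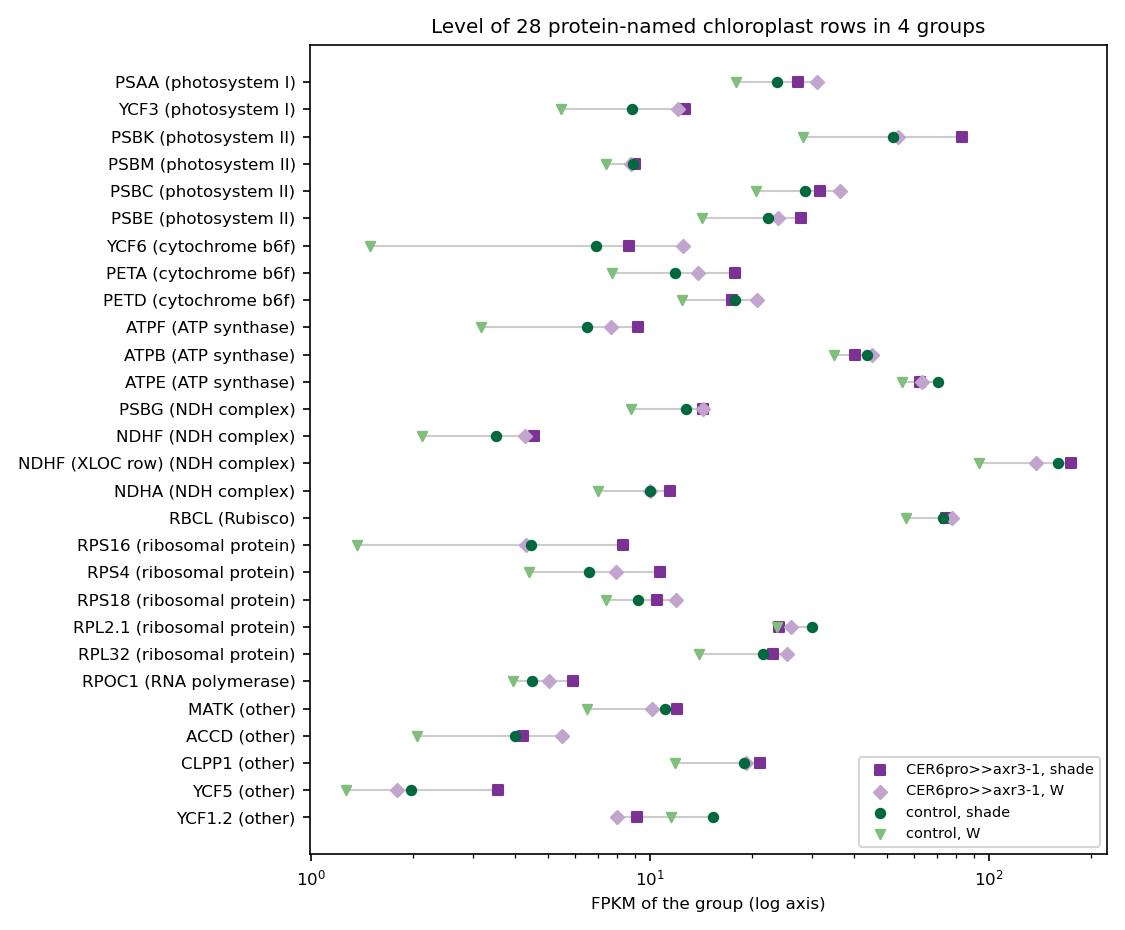
FPKM of each of the 28 protein-named chloroplast rows above 0 (down the page, with the role in brackets) in the 4 groups, on a log axis; each symbol is the authors' 1 value for a group of 4 libraries, so there are no error bars. The triangle of control seedlings in W is leftmost in 27 of the 28 rows, and YCF1.2 is the exception.

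Photosystem genes were among the higher rows. The PSBK row had 83.0 FPKM in shade and 54.0 in W in CER6pro>>axr3-1, and 51.9 in shade and 28.2 in W in control. PSBC (with psbD, the genes of the CP43 antenna protein and of the D2 core protein) had 31.7 FPKM in shade and 36.3 in W in CER6pro>>axr3-1, and 28.7 in shade and 20.5 in W in control. PSBE (with psbF, the genes of cytochrome b559) had 27.9 FPKM in shade and 23.8 in W in CER6pro>>axr3-1, and 22.2 in shade and 14.2 in W in control. In all 3 rows the control seedlings in W were lowest, and for PSBK and PSBE the CER6pro>>axr3-1 seedlings in shade were highest. PSAA, with psaA and psaB for the core of photosystem I, had 27.3 FPKM in shade and 31.1 in W in CER6pro>>axr3-1, and 23.7 in shade and 18.0 in W in control. YCF3, whose product helps to assemble photosystem I, had 12.6 FPKM in shade and 12.0 in W in CER6pro>>axr3-1, and 8.81 in shade and 5.44 in W in control. PSBM, a small photosystem II subunit, had 9.03 FPKM in shade and 8.75 in W in CER6pro>>axr3-1, and 8.89 in shade and 7.39 in W in control. Its groups lay closest together of these 6 rows, and control seedlings in W were lowest in all 6.

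Genes of the electron transport chain between and beyond the photosystems showed the same lowest group. PETA, which encodes cytochrome f, had 17.8 FPKM in shade and 13.8 in W in CER6pro>>axr3-1, and 11.9 in shade and 7.71 in W in control. YCF6 (petN, a small subunit of the cytochrome b6f complex) had 8.66 FPKM in shade and 12.5 in W in CER6pro>>axr3-1, and 6.93 in shade and 1.49 in W in control. PETD, for subunit IV of that complex, had 17.4 FPKM in shade and 20.6 in W in CER6pro>>axr3-1, and 17.8 in shade and 12.4 in W in control. YCF6 thus spread most of the 3 rows, at the lowest level. Of the NDH genes, NDHF had 4.55 FPKM in shade and 4.27 in W in CER6pro>>axr3-1, and 3.51 in shade and 2.12 in W in control in its ATCG row. An XLOC row with the same name and locus had 174 FPKM in shade and 137 in W in CER6pro>>axr3-1, and 160 in shade and 93.6 in W in control, so the 2 rows differ widely in level and share the lowest group. NDHA, in a locus of 8 genes that includes psaC, had 11.4 FPKM in shade and 9.95 in W in CER6pro>>axr3-1, and 10.01 in shade and 7.03 in W in control. PSBG (ndhC, ndhJ and ndhK) had 14.3 FPKM in shade and 14.3 in W in CER6pro>>axr3-1, and 12.8 in shade and 8.74 in W in control. The CER6pro>>axr3-1 and shade-treated control groups were close to each other in NDHA and PSBG, and the control seedlings in W lay below them.

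RBCL (ATCG00490), the gene of the large Rubisco subunit, had 74.4 FPKM in shade and 77.7 in W in CER6pro>>axr3-1, and 73.2 in shade and 56.7 in W in control. Its 3 upper groups lay within a few FPKM of each other. ATPE, which encodes the epsilon subunit of ATP synthase, had 62.4 FPKM in shade and 63.5 in W in CER6pro>>axr3-1, and 70.7 in shade and 55.5 in W in control. ATPB, for the beta subunit, had 40.3 FPKM in shade and 45.1 in W in CER6pro>>axr3-1, and 43.6 in shade and 34.9 in W in control. ATPF, in the long locus with atpA, was lower, with 9.22 FPKM in shade and 7.65 in W in CER6pro>>axr3-1, and 6.52 in shade and 3.17 in W in control. The shade-treated control seedlings were highest in ATPE, and CER6pro>>axr3-1 seedlings were highest in the other rows of these 4.

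Genes of expression and of other processes were mostly lower. RPOC1, for a core subunit of the bacterial-type polymerase, had 5.93 FPKM in shade and 5.01 in W in CER6pro>>axr3-1, and 4.48 in shade and 3.92 in W in control. Among ribosomal protein genes RPL32 had 23.0 FPKM in shade and 25.3 in W in CER6pro>>axr3-1, and 21.5 in shade and 13.9 in W in control. RPL2.1 had 23.9 FPKM in shade and 26.1 in W in CER6pro>>axr3-1, and 29.9 in shade and 23.6 in W in control. Control seedlings in W were lowest in both. The RPS16 row had 8.29 FPKM in shade and 4.30 in W in CER6pro>>axr3-1, and 4.45 in shade and 1.36 in W in control. The 4 groups were thus close in RPL2.1 and far apart in RPS16. ACCD (ATCG00500), a subunit of the acetyl-CoA carboxylase that starts fatty acid synthesis, had 4.21 FPKM in shade and 5.49 in W in CER6pro>>axr3-1, and 3.99 in shade and 2.05 in W in control. The CER6pro>>axr3-1 seedlings in W were thus highest in ACCD. MATK, which encodes a splicing factor for chloroplast introns, had 12.0 FPKM in shade and 10.14 in W in CER6pro>>axr3-1, and 11.04 in shade and 6.49 in W in control. CLPP1, for the catalytic subunit of the Clp protease, had 21.1 FPKM in shade and 19.2 in W in CER6pro>>axr3-1, and 18.9 in shade and 11.9 in W in control. YCF5 (ccsA, for cytochrome c maturation) had 3.54 FPKM in shade and 1.79 in W in CER6pro>>axr3-1, and 1.97 in shade and 1.27 in W in control. In each of these 4 rows control seedlings in W were lowest, and the other groups were in no common order.

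The tRNA rows were sparser and spread more widely than the protein-named ones. Of the 124 group values of the 31 ATCG tRNA rows, 99 were 0, and the others spread from 4.52 to 1593 FPKM, against 1.27 to 174 FPKM for the protein-named rows. TRNH, for the histidine tRNA, had 1008 FPKM in shade and 585 in W in CER6pro>>axr3-1, and 1593 in shade and 661 in W in control in its ATCG row. TRNP, for the proline tRNA, had 373 FPKM in shade and 873 in W in CER6pro>>axr3-1, and 586 in shade and 187 in W in control. The XLOC row named TRNC, for the cysteine tRNA, had 27.8 FPKM in shade and 96.0 in W in CER6pro>>axr3-1, and 35.9 in shade and 45.6 in W in control. Over the 10 tRNA-named rows with a value in every group, control seedlings in W were lowest in 8. The exceptions were TRNC and the ATCG row of TRNH. An XLOC row named TRNH at the same locus had 45.9 FPKM in shade and 40.8 in W in CER6pro>>axr3-1, and 31.3 in shade and 23.1 in W in control. TRND, for the aspartate tRNA, was listed at 167 FPKM in CER6pro>>axr3-1 in shade and at 0 in the other 3 groups. TRNQ, for a glutamine tRNA, was listed at 126 FPKM in CER6pro>>axr3-1 in W and at 0 in the other 3 groups. None of these tRNA rows was called in any comparison, and TRNP had standard errors of 2.20 to 4.08 on the log2 scale.

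As a share of all summed FPKM of a group, chloroplast rows made up 0.316% in CER6pro>>axr3-1 in shade, 0.323% in CER6pro>>axr3-1 in W, 0.354% in control in shade and 0.165% in control in W. The tRNA-named rows supplied most of it, with 0.231% in shade and 0.251% in W in CER6pro>>axr3-1, and 0.275% in shade and 0.114% in W in control. The protein-named rows supplied 0.0838% in shade and 0.0707% in W in CER6pro>>axr3-1, and 0.0773% in shade and 0.05004% in W in control. Without the 3 rows of the highest mean (TRNH, TRNP and an XLOC row named TRNG.1) the share of all chloroplast rows was 0.138% in shade and 0.141% in W in CER6pro>>axr3-1, and 0.1002% in shade and 0.0672% in W in control. Mitochondrial rows made up 0.0173% in shade and 0.0218% in W in CER6pro>>axr3-1, and 0.0180% in shade and 0.0140% in W in control. Control seedlings in W had the smallest share in each of these sums. FPKM weighs short genes up, so a share of summed FPKM is not a share of fragments.

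**Figure D2:**
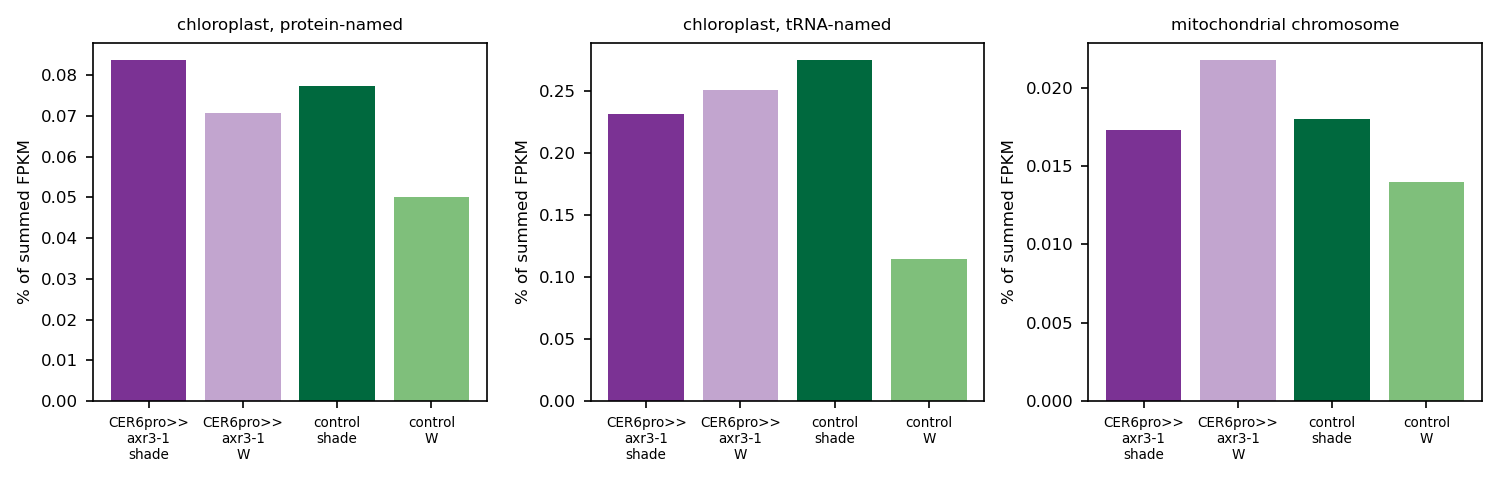
Share of a group's summed FPKM, in percent, held by protein-named chloroplast rows (left), tRNA-named chloroplast rows (middle) and rows of the mitochondrial chromosome (right); each bar is 1 group of 4 libraries with no error bar, and the axes differ in scale. Control seedlings in W have the shortest bar in each panel, 0.05004%, 0.114% and 0.0140%.

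Shade against W in control seedlings asks how the light treatment changed chloroplast RNA in seedlings without the CER6 promoter driver. The PSBK row rose, with 51.9 FPKM in shade against 28.2 FPKM in W. Its log2 fold was 0.88 ± 0.27 (standard error), with q = 0.0387 in the authors' deposited table. It was the 1 row called of the 39 chloroplast rows tested, while 2.85% of all 20325 rows tested were called, so the count lay near the background. At an unadjusted p under 0.05 the chloroplast rows were 5 of 39 or 12.8% (MATK, PSBK, ACCD, PETA and PSBE, all higher in shade), against 8.57% of all rows. All 28 protein-named rows had a log2 fold above 0, with a median of 0.61 and a range of 0.19 to 2.22, whereas of all tested rows 50.7% were above 0 with a median of 0.00. Fold medians by role were 0.35 for ATP synthase, 0.55 for photosystem I, 0.56 for photosystem II, 0.62 for cytochrome b6f and 0.64 for NDH genes. Of the tRNA-named rows 9 of 10 were above 0, with a median of 0.96, and of all 39 chloroplast rows with a fold 37 were, with a median of 0.63. Mitochondrial rows had a median of 0.31, 11 of 12 were above 0 and none of these was called.

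In CER6pro>>axr3-1 seedlings the same light comparison called no chloroplast row of 41 tested by Cuffdiff's q, against 2.52% of all 20441 rows. The lowest q was 0.391, for PSBK in the authors' deposited table, with 83.0 FPKM in shade against 54.0 FPKM in W and a log2 fold of 0.62 ± 0.28. At an unadjusted p under 0.05 there were 3 rows (PSBK, TRND and TRNL.1, 7.32% of those tested), against 8.15% of all rows. Adjustment within this 1 table also called none. Of the protein-named rows 17 of 28 had a log2 fold above 0, with a median of 0.08, against 53.4% and a median of 0.02 for all tested rows. Single rows that did not pass the test lay on both sides of 0. ACCD had 4.21 FPKM in shade against 5.49 in W (log2 fold -0.38 ± 0.35). YCF5 had 3.54 FPKM in shade against 1.79 in W (0.99 ± 0.56). Of the tRNA-named rows 5 of 11 were above 0, with a median of -0.56, and of all chloroplast rows 22 of 40, with a median of 0.06. Mitochondrial rows had a median of -0.24, with 4 of 18 above 0.

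The genotypes were also compared in W, which asks what the epidermal axr3-1 changed in unshaded seedlings. PSBK and ACCD rose in CER6pro>>axr3-1. PSBK had 54.0 FPKM in CER6pro>>axr3-1 against 28.2 FPKM in control, a log2 fold of 0.94 ± 0.28, with q = 0.0278 in the authors' deposited table. ACCD had 5.49 FPKM in CER6pro>>axr3-1 against 2.05 FPKM in control, a log2 fold of 1.42 ± 0.44, with q = 0.0456 there. These were 2 of the 40 rows tested, both higher, while 2.16% of all 20470 rows were called, 1.46% higher and 0.699% lower. Adjusted within this 1 table, 1 of the 2 calls was left. At an unadjusted p under 0.05 there were 13 of 40 rows or 32.5%, all higher in CER6pro>>axr3-1, against 8.09% of all rows in either direction. They covered photosystem II (PSBK, PSBC, PSBE), photosystem I (PSAA, YCF3), cytochrome b6f (PETA, YCF6), NDH (PSBG, NDHF), ribosomal protein (RPL32), splicing (MATK), lipid (ACCD) and 1 tRNA row (TRNL.1, for a leucine tRNA). PETA came nearest to the threshold, with a log2 fold of 0.84 ± 0.28 and q = 0.0771 in the authors' deposited table. YCF6 had the largest fold of the protein-named rows, 12.5 FPKM in CER6pro>>axr3-1 against 1.49 FPKM in control, with a log2 fold of 3.07 ± 1.43. Its interval is wide, and the q in the authors' deposited table was 0.424. Of the protein-named rows 27 of 28 were above 0, with a median log2 fold of 0.72, against 51.0% and a median of 0.01 for all tested rows. Of the tRNA-named rows 9 of 10 were above 0, with a median of 0.95. Mitochondrial rows had a median of 0.70, with 16 of 17 above 0 and none called.

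Between the genotypes in shade, no chloroplast row of 41 tested passed Cuffdiff's q, against 1.25% of all 20321 rows, nor did any after adjustment within this 1 table. At an unadjusted p under 0.05 there were 3 rows (PSBK, TRND and YCF1.2), against 4.95% of all rows. PSBK had 83.0 FPKM in CER6pro>>axr3-1 against 51.9 FPKM in control, a log2 fold of 0.68 ± 0.28, with q = 0.268 in the authors' deposited table. YCF1.2 had 9.12 FPKM in CER6pro>>axr3-1 against 15.3 FPKM in control, a log2 fold of -0.74 ± 0.33, with q = 0.366 there. These 2 rows lay on opposite sides of 0. Of the protein-named rows 23 of 28 were above 0, with a median of 0.18, against 52.7% and a median of 0.01 for all tested rows. Of the tRNA-named rows 4 of 10 were above 0, with a median of -0.34, and of all chloroplast rows 28 of 39, with a median of 0.17. Mitochondrial rows had a median of 0.04. The 4 comparisons share groups with each other (control in W, for example, enters both the light comparison of control seedlings and the genotype comparison in W), so their folds are not independent.

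**Figure D3:**
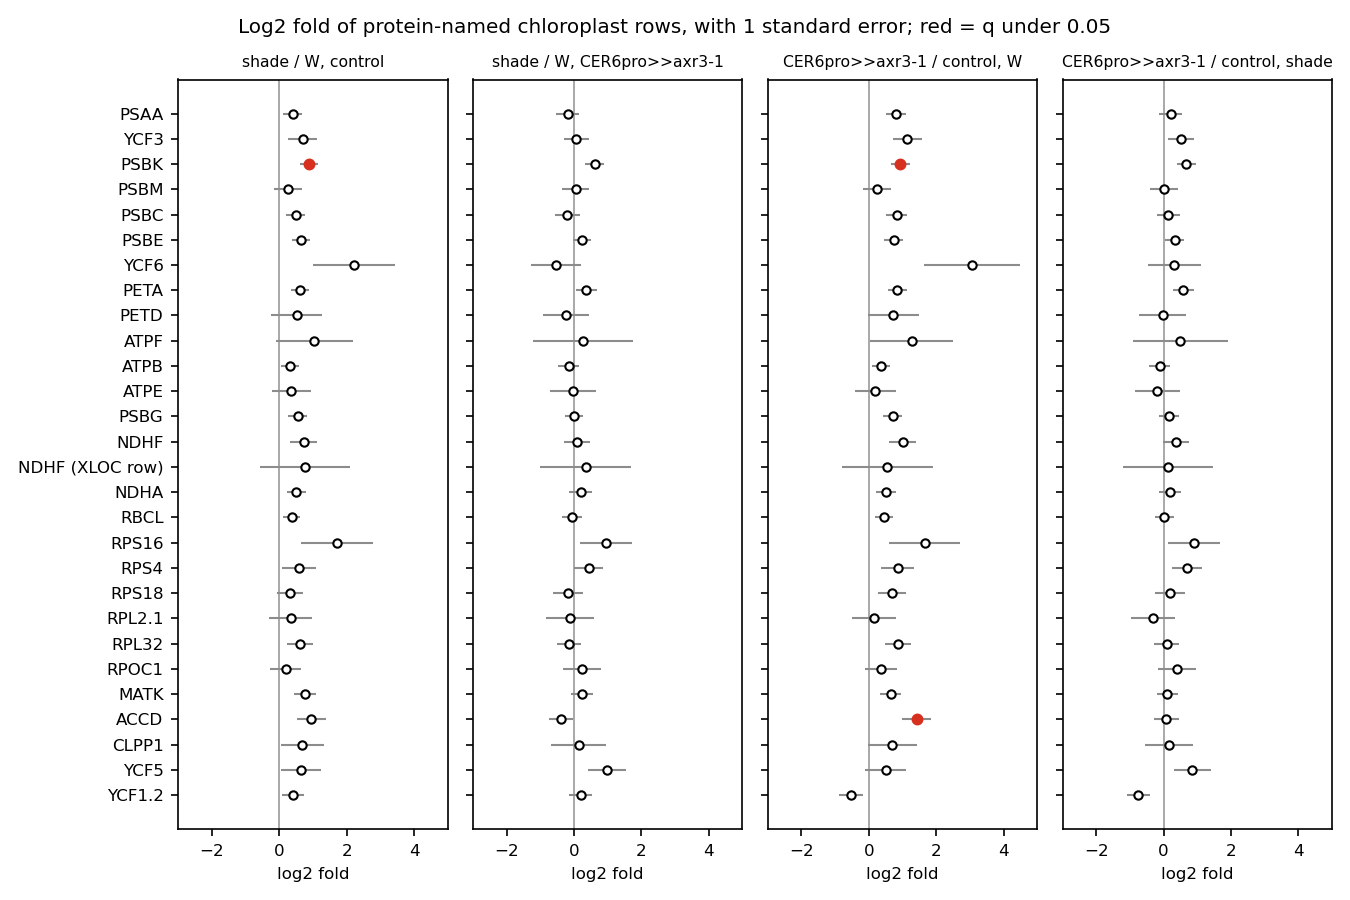
Log2 fold of 28 protein-named chloroplast rows in 4 comparisons (shade over W in control and in CER6pro>>axr3-1 seedlings, then CER6pro>>axr3-1 over control in W and in shade); bars are 1 standard error derived from the authors' p, and red points have q under 0.05. From left to right, points lie right of 0 for 28, 17, 27 and 23 rows; PSBK is red for shade over W in control and for CER6pro>>axr3-1 over control in W, and ACCD is red in the same W panel.

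The authors also compared groups that differ in both factors. CER6pro>>axr3-1 in shade against control in W called 3 of 41 rows, all higher, while 4.75% of all 20423 rows were called, 2.49% higher. PSBK had 83.0 FPKM in CER6pro>>axr3-1 in shade against 28.2 FPKM in control in W, a log2 fold of 1.56 with q = 0.00309 in the authors' deposited table, at the smallest p those tables hold. PETA had 17.8 FPKM in CER6pro>>axr3-1 in shade against 7.71 FPKM in control in W (1.21 ± 0.33, q = 0.0141 in the authors' deposited table). PSBE had 27.9 FPKM in CER6pro>>axr3-1 in shade against 14.2 FPKM in control in W (0.97 ± 0.29, q = 0.0294 in the authors' deposited table). All 3 rows cover several small or electron-transport subunits, and none of the 3 is a single gene. In the opposite pair, CER6pro>>axr3-1 in W against control in shade, none of 40 chloroplast rows was called by Cuffdiff's q, against 3.94% of all 20458 rows. The 1 row at an unadjusted p under 0.05, against 11.6% of all rows, was YCF1.2, with 7.98 FPKM in CER6pro>>axr3-1 in W against 15.3 FPKM in control in shade and a log2 fold of -0.94 ± 0.34. Set side by side, the 3 comparisons that include control seedlings in W called 1, 2 and 3 chloroplast rows (1 of 39, 2 of 40 and 3 of 41), where 2.85%, 2.16% and 4.75% of all rows were called. The 3 that do not include them called 0 of 41, 0 of 41 and 0 of 40, where 2.52%, 1.25% and 3.94% of all rows were called. With so few calls, these counts do not set the comparisons apart from the background. The tables hold no value per library, so whether 1 of the 4 libraries of control seedlings in W gave that group's low levels cannot be told.

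Whether the shade response itself differed between the genotypes was tested as the difference of the log2 folds, CER6pro>>axr3-1 minus control. It was below 0 in 35 of 39 chloroplast rows, with a median of -0.49, against 47.8% below 0 and a median of 0.01 over all 19989 rows tested, those with at least 1 FPKM in some group. The level of control seedlings in W enters this difference with a positive sign, so low values there push it below 0. The count is therefore not separate from the low levels of that group given above. With standard errors from the authors' test statistic, 5 rows had q under 0.05 (Benjamini-Hochberg over all rows), while 0.62% of all rows did. They were TRNP (-2.88), YCF6 (-2.75), the XLOC rows named TRNT.2 (-2.05) and TRNG.1 (-0.84), and TRNC (-1.44). With standard errors from the authors' p-values, none of the 39 rows passed, against 0.01% of all rows. At an unadjusted p under 0.05 there were 3, but the share of all rows at that threshold was not computed. That count therefore cannot be set against a background. The 2 sources differ because the statistic of many chloroplast rows is larger than its p allows. TRNP had a statistic of 26.3 in control seedlings in the authors' deposited table, beside a p of 0.683 for the same comparison. A statistic over 2 times the size that its p implies was found in 25.6% to 35.9% of chloroplast rows over the 6 comparisons, and in 1.54% to 1.74% of all rows. By the p-values, a difference of the shade response was not detectable for any single chloroplast row. PSBK had a difference of -0.26 ± 0.39, and ACCD one of -1.34 ± 0.56, by the p-values.

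The nuclear genes that run chloroplast transcription and RNA handling were followed in lists of 35 genes, 34 of which had a row (the gene of thioredoxin z, PAP10, was not matched). PAPs, the polymerase-associated proteins that surround the bacterial-type core, were compared between the genotypes in W: 5 of 11 tested fell in CER6pro>>axr3-1, none rose, all 11 were below 0, and the median log2 fold was -0.66, against 0.699% of all rows called lower and a median of 0.01. PAP6 (AT3G54090, FLN1, a fructokinase-like protein) had 13.5 FPKM in CER6pro>>axr3-1 against 24.2 FPKM in control, a log2 fold of -0.84 ± 0.22 with q = 0.00793 in the authors' deposited table. PAP3 (PTAC10) had 17.3 FPKM in CER6pro>>axr3-1 against 29.7 FPKM in control, with -0.78 ± 0.20. The others that fell were PAP5 (HEMERA) at -0.73, PAP4 (FSD3, an iron superoxide dismutase) at -0.69 and PAP7 (PTAC14) at -0.66. In shade the PAPs had a median of -0.22, 10 of 11 were below 0 and none was called by q, with 1 at an unadjusted p under 0.05.

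Of the 6 sigma factors 1 changed in that comparison, where 2.16% of all rows were called and 1.46% were called higher. SIG5 (AT5G24120), a sigma factor known to respond to stress and light, rose in CER6pro>>axr3-1 in W, with 43.0 FPKM in CER6pro>>axr3-1 against 23.9 FPKM in control, a log2 fold of 0.85 ± 0.22 and q = 0.00564 in the authors' deposited table. In CER6pro>>axr3-1 seedlings SIG5 fell under shade, with 25.5 FPKM in shade against 43.0 FPKM in W (-0.76 ± 0.20, q = 0.0101 in the authors' deposited table). Control seedlings had 21.0 FPKM of SIG5 in shade against 23.9 FPKM in W (-0.18 ± 0.21). SIG5 was the 1 sigma factor of 6 called under shade in CER6pro>>axr3-1, against 2.52% of all rows. All 6 lay below 0 under shade in both genotypes. Their median log2 fold was -0.41 in CER6pro>>axr3-1 and -0.20 in control, against 0.02 and 0.00 for all tested rows. Of the phage-type polymerases, RPOTp had 8.73 FPKM in CER6pro>>axr3-1 in W against 11.1 FPKM in control in W, and RPOTmp had 3.68 FPKM in CER6pro>>axr3-1 in W against 3.66 FPKM in control in W. Neither was called in any of the 4 comparisons with 1 factor.

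Among 11 RNases and RNA-binding proteins 2 fell in CER6pro>>axr3-1 in W and none rose, against 0.699% of all rows called lower and 1.46% higher. The log2 fold was below 0 in 10 of the 11, with a median of -0.36, against a median of 0.01 for all tested rows. RNJ, the gene of chloroplast RNase J, had 10.7 FPKM in CER6pro>>axr3-1 against 18.0 FPKM in control, with -0.75 ± 0.21 and q = 0.0160 in the authors' deposited table. CP29A, a chloroplast RNA-binding protein, had 267 FPKM in CER6pro>>axr3-1 against 565 FPKM in control (-1.08 ± 0.34, q = 0.0456 in the authors' deposited table). PNP, for polynucleotide phosphorylase, which both degrades and adds tails to chloroplast RNA, had 15.5 FPKM in CER6pro>>axr3-1 against 24.0 FPKM in control, with q = 0.0793 in the authors' deposited table. Of 4 proteins that protect transcript ends, 1 was called in control seedlings under shade, against 2.85% of all rows. This was MRL1, which stabilises rbcL RNA and fell, with 14.3 FPKM in shade against 23.6 FPKM in W (-0.72 ± 0.21, q = 0.0213 in the authors' deposited table). MRL1 in CER6pro>>axr3-1 seedlings had 16.7 FPKM in shade against 23.6 FPKM in W (-0.50 ± 0.21, q = 0.297 in the authors' deposited table). In control seedlings RBCL itself had 73.2 FPKM in shade against 56.7 FPKM in W and was not called (0.37 ± 0.26, q = 0.926 in the authors' deposited table). HCF152, HCF107 and CRP1 were not called in any of those 4 comparisons. In shade none of the 34 genes was called by Cuffdiff's q between the genotypes, against 1.25% of all rows, and 1 had an unadjusted p under 0.05, against 4.95% of all rows. Both counts lay near the background. The part of these nuclear genes in the chloroplast levels was not tested.

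**Figure D4:**
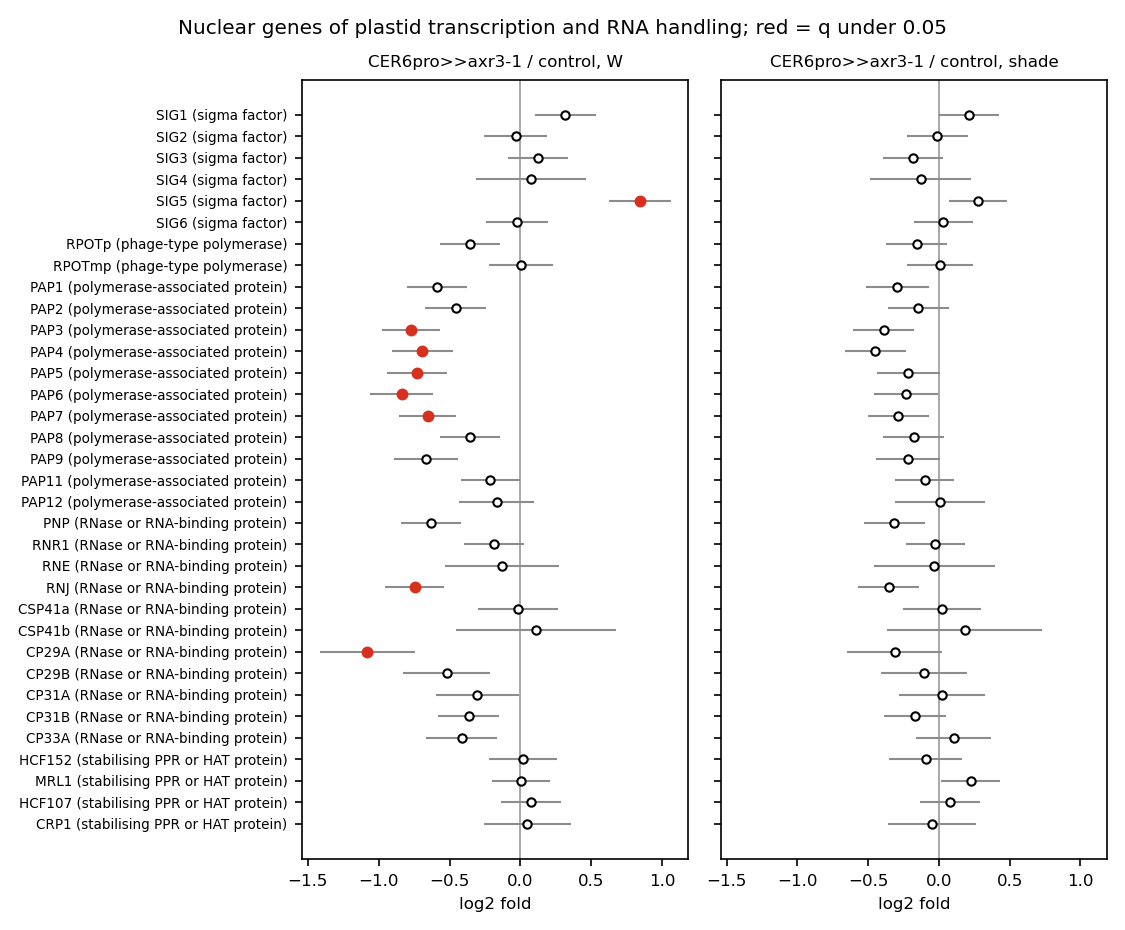
Log2 fold of 34 nuclear genes of plastid transcription and RNA handling (down the page, with the list in brackets), CER6pro>>axr3-1 over control in W (left) and in shade (right); bars are 1 standard error derived from the authors' p, and red points have q under 0.05. In W, 7 red points lie left of 0 (PAP3 to PAP7, RNJ and CP29A) and SIG5 lies right of it, and no point is red in shade.

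Markers and the transgene gave the following background. AXR3, whose row counts the native gene and any transgene reads that match it, had 112 FPKM in CER6pro>>axr3-1 in shade and 113 in CER6pro>>axr3-1 in W, against 37.1 FPKM in control in shade and 47.1 in control in W. It was called higher in both lights. RBCS1A, a nuclear gene of the small Rubisco subunit and a marker of green tissue, had 19472 FPKM in shade and 20076 in W in CER6pro>>axr3-1, and 15647 in shade and 18210 in W in control, with no call. Its log2 folds had standard errors of 1.05 to 1.19, so the lack of a call says little about the amount of green tissue. LHCB1.3, also a marker of green tissue, was not tested by Cuffdiff. The markers of epidermis (ATML1, FDH, CER5), vasculature (SUC2, IRX3) and root (CASP1, COBL9) were present in all 4 groups with no call. Control seedlings in W were highest in ATML1, CER5, SUC2, IRX3 and COBL9, but not in FDH and CASP1. CER5 had 46.0 FPKM in shade and 53.1 in W in CER6pro>>axr3-1, and 41.2 in shade and 63.3 in W in control. CER6 itself had 200 FPKM in shade and 180 in W in CER6pro>>axr3-1, and 197 in shade and 263 in W in control, with no call. The seed storage genes CRA1 and SESA3 did not exceed 0.323 FPKM. The depth of the libraries is unknown, since the tables give no counts.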

How the data were processed

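Polyadenylated RNA of 16 libraries, 4 per group, was sequenced. Per the submitters' processing notes the authors used CASAVA 1.8.2, TopHat2 2.0.9, Bowtie2 2.1.0, Cufflinks and Cuffdiff with the build TAIR10; versions of the last pair are not given in the sources used here. FPKM values were computed by the authors and deposited as 1 value per group and comparison in 6 gene tables. The authors also deposited the score of each test (Cuffdiff's statistic), its p-value and its q-value, and a log2 fold change. Groups follow the labels, and depth is unknown. Rows were taken by chromosome.

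Log2 folds were recomputed from FPKM with no pseudocount (Python 3.11.15, pandas 2.3.3, scipy 1.17.1). A row was called at the authors' q under 0.05 among rows Cuffdiff tested. Standard errors came from the authors' p-values, since the statistic did not match p for many chloroplast rows; where p was 5e-05, the smallest in the tables, none is given. The difference of the shade responses was a two-sided z test with the statistic's standard error, Benjamini-Hochberg adjusted over all rows. Genes were named where called, where highest or most or least variable within a role, or when on a list of key genes. The row of LHCB1.3, which Cuffdiff marked as too deep to quantify, was left out of sums. The 8 Brassica tables were not used. Members and lists were chosen with earlier results of these data known.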

Additional observations from a re-analysis of the deposited data

Results flagged for a closer look

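A z test called a difference of the shade response between the genotypes (CER6pro>>axr3-1 minus control, on the log2 scale) in 5 chloroplast rows with the standard error from the authors' test statistic, against 0.62% of all 19989 rows tested. That statistic was over 2 times the size its p implies in 25.6% to 35.9% of chloroplast rows over the 6 comparisons. The difference was -2.88 for TRNP, -2.75 for YCF6 (petN), -2.05 for the XLOC row named TRNT.2, -1.44 for TRNC and -0.84 for the XLOC row named TRNG.1. The difference is negative in all 5. None of the 5 passed with standard errors from the authors' p-values, which are 5.06 for TRNP, 1.42 for YCF6, 1.00 for TRNT.2, 1.90 for TRNC and 2.83 for TRNG.1.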

How the results depend on the processing

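Calls rest on few rows. Merged rows here are XLOC rows over more than 1 gene. ATCG rows in loci of several genes, such as ATPF and PETD, are not among them. In control seedlings the 1 row called between shade and W was 0 at q under 0.01 and 0 among protein rows without merged rows. Between the genotypes in W the 2 called rows were 0 at q under 0.01, 1 when p was adjusted over that 1 table and 1 among protein rows without merged rows. The 5 rows whose shade response differed were 0 with z from the authors' p. The chloroplast share of summed FPKM, without tRNA and rRNA rows, was 0.0850% in CER6pro>>axr3-1 in shade, 0.0723% in CER6pro>>axr3-1 in W, 0.0787% in control in shade and 0.0510% in control in W; without the 3 highest rows it was 0.138% and 0.141% in CER6pro>>axr3-1 (shade, W), and 0.1002% and 0.0672% in control (shade, W). Of 66 alternatives to 17 results, 52 stayed within a set tolerance of the main value, 6 were weaker and 8 moved. The tolerance was a fixed ratio for most counts and the median standard error of the rows for median folds. For these it is loose and tests no threshold. For shares the tolerance was 0, so all 8 share alternatives counted as moved whatever the size of the change. Reversal of sign was checked for medians and shares only. No median reversed, and a share is always positive, so its sign could not reverse. Median log2 folds stayed between 0.53 and 0.69 (shade in control), 0.04 and 0.18 (shade in CER6pro>>axr3-1), 0.65 and 0.76 (genotypes in W) and 0.14 and 0.19 (genotypes in shade). Scaling to equal nuclear totals moves all folds by 0.13 in shade against W of CER6pro>>axr3-1 and by less than 0.1 elsewhere, and then 20 of 28 protein-named rows are above 0 there. Loci that hold at most 1 whole annotated gene were chosen after seeing the data (the loci of RPS16 and YCF3 hold none). Among these, 10 of 10, 6 of 10, 9 of 10 and 9 of 10 protein-named rows were above 0 in those 4 comparisons. No paired analysis was possible because the tables give 1 value per group and none per library; leaving out a replicate was not run for the same reason, and shares by fragments were not run because the tables give no row length.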
